A study of Mus musculus with 13 samples.

Results

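The sites described here were those at which an ESR1 peak appeared with estradiol (E2) and was still called when fulvestrant was given before E2. They were selected on peak calls: the 12 deposited peak lists were merged wherever peaks overlapped by 1 bp or more. A merged region was kept when it held a peak in E2 replicates 2 and 3 and in E2 plus fulvestrant replicates 1, 2 and 3, and none in vehicle replicates 1, 2 and 3 or in fulvestrant replicates 1 and 3. This rule chose 344 of 228284 merged regions (0.151%), or 344 of the 119035 regions with a peak in any of these 10 libraries. E2 replicate 1 and fulvestrant replicate 2 did not enter the rule and are described apart. Because presence and absence of peaks chose the sites, neither is a result, and "kept site" below states the rule alone. Peaks of a merged region need not share a summit. The strongest summits of the 5 libraries with a required peak spread over a median of 148.5 bp and at most 1124 bp. They lay within 100 bp of each other at 111 of 344 sites (32.3%).

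ESR1 ChIP-Seq was done in hernia-associated fibroblasts grown from the lower abdominal muscle of Aromhum mice, which carry the human aromatase gene and so make more estrogen in muscle. The cells were enriched by preplating, passaged once and starved of serum overnight, and every group shared this genotype and culture. Cells received vehicle (ethanol and DMSO), 10 nM E2, 10 nM E2 with fulvestrant (100 nM) beforehand, or only the fulvestrant, and were fixed 1 h after E2 or ethanol was added. Each treatment had 3 libraries, and an input library was not analysed here. The sources used here do not say whether the 3 libraries of a treatment came from separate animals, so any p-value measures the spread between libraries. The 10 libraries of the rule had relative depths of 92.0% to 106% of the median library. Depth was judged by the lowest local background in each list, divided by the shortest peak length in that list. E2 replicate 1 stood at 39.1% and fulvestrant replicate 2 at 75.8%.

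ESR1 is a nuclear receptor that binds DNA as a dimer, most tightly at the estrogen response element (ERE), a palindrome of 5-base half-sites with 3 bases between them. E2 promotes stable binding of the receptor to chromatin, where it can also be held by other factors such as AP-1. Fulvestrant competes with E2 for the ligand pocket, hinders the helix movement that coactivators need and leads to degradation of the receptor.

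The clearest property of the kept sites that the rule did not use was their DNA. An ERE with the letters GGTCANNNTGACC and at most 1 mismatch lay within 100 bp of the summit in 73 of 344 sites (21.2%, Wilson 95% interval 17.2 to 25.8). Without E2 plus fulvestrant replicate 1 the rule chose 1216 regions, of which 14.1% held an ERE. Intervals here cover counting error only, and neighbouring regions are not replicates of a treatment. The following lines give 9 well-ranked sites with an ERE without mismatch, and then the site in Pgr, the progesterone receptor gene and a textbook estrogen target. Each is the plus strand of mm10 with 20 bases on either side, and capitals mark the 13 bases of the element.
Ceacam3 (chr7:17155913-17155965): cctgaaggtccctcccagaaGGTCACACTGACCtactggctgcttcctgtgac
Hdac4 (chr1:92078101-92078153): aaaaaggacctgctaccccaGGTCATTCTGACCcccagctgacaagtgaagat
Gm17745 (chr10:93331626-93331678): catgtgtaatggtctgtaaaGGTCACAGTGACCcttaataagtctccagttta
Pdxk-ps (chr17:32073220-32073272): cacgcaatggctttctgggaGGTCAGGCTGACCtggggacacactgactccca
Slco2a1 (chr9:102997918-102997970): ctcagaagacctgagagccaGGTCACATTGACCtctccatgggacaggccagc
Mboat1 (chr13:30138921-30138973): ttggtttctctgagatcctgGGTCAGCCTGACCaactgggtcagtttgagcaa
Hmbox1 (chr14:64873517-64873569): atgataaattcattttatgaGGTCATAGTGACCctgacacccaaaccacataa
Fam178b (chr1:36635953-36636005): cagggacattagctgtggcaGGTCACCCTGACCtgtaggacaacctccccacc
Gm24039 (chr16:57851160-57851212): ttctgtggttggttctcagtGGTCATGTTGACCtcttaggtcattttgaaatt
Pgr (chr9:8951300-8951352): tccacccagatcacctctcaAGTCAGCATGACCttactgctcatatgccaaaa
The Pgr element has the single change G1A, with the consensus base first and positions counted from 1 at the 5′ end of the 13 bases. Its centre lay 1 bp from the summit.

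The whole summit window of the best-ranked kept site, 100 bp on each side of the summit in an intron of Ceacam3, is given to show how the element sits in its surroundings.
Ceacam3 (chr7:17155846-17156046): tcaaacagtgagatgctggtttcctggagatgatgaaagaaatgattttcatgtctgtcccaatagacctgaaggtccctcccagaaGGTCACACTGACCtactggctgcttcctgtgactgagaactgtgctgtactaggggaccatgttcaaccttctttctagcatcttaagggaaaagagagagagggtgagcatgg

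The ERE was concentrated at the summit and scarce beside it. In windows of the same length 2 kb upstream of the same summits it was present at 0.872% of sites. It was found at 2.05% of all regions with a peak in any of the 10 libraries, at 3.85% of the 12029 constant sites, which had a peak in all 10 libraries, and at 4.16% of the 1683 sites with peaks in E2 replicates 2 and 3 and none in the E2 plus fulvestrant libraries or in the vehicle and fulvestrant libraries of the rule. The interval of the kept sites lay above the interval of each of these sets. An ERE without mismatch was present at 12 kept sites (3.49%), against 0.327% of regions with a peak in any of the 10 libraries.

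Among the 73 elements the median distance from summit to centre was 20 bp, and 60 of 73 lay within 50 bp. Of the 61 elements with 1 mismatch, 26 had it at the outermost base of a half-site and 21 at the third base, while 2 had it at the fourth. In 23 of 73 elements an A preceded and a T followed the 13 bases, and 6 sites held 2 or more EREs.

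**Figure D1:**
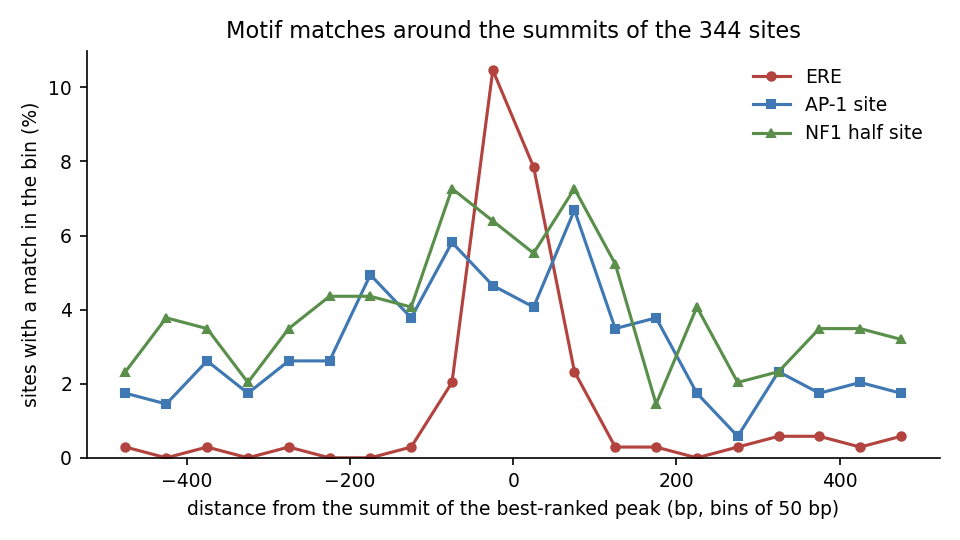
Share of the 344 kept sites, in percent, with a match to the ERE (at most 1 mismatch), the AP-1 site or the NF1 half-site in each 50 bp bin, plotted by distance in bp from the summit of the best-ranked peak. The ERE reached 10.5% and 7.85% in the bins on either side of the summit and fell below 0.6% beyond 100 bp, whereas the AP-1 and NF1 matches formed broader humps.

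Other motifs were searched on both strands within the same 100 bp of the summit. A single half-site, GGTCA, was present at 62.8% of kept sites and in 33.7% of the windows 2 kb upstream. Sites with a half-site but no ERE made up 41.6%, against 32.8% of the upstream windows. The AP-1 site TGANTCA, bound by FOS and JUN dimers, was found at 65 kept sites (18.9%), against 6.69% upstream, 12.7% of E2 sites with no peak under E2 plus fulvestrant and 6.36% of constant sites. Of these 65 sites, 10 also held an ERE. The NF1 half-site TTGGCA, bound by nuclear factor I proteins, was found at 24.7% of kept sites, against 7.27% upstream, 15.8% of E2 sites with no peak under E2 plus fulvestrant and 10.7% of constant sites. It was found at 22 of 81 sites (27.2%) with peaks in the 3 E2 plus fulvestrant libraries and none in the other libraries of the rule, and the interval of that share overlapped the interval of the kept sites. Kept sites and E2 sites with no peak under E2 plus fulvestrant differed in rank. Their AP-1 and NF1 shares by rank, given below, did not keep this order in every bin.

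Some other motifs were rarer at kept sites than at constant sites. The GC box GGGCGG was present at 2.91% of kept sites, 3.78% of upstream windows and 21.7% of constant sites. The PLAG-type site was present at 3.78%, 4.65% and 15.3%. The paper reported enriched PLAG1 motifs next to ESR1 sites in distal regions of E2-treated cells, in a set of regions chosen otherwise. The TEAD site GGAATG was present at 15.1% of kept sites and 13.4% of upstream windows, whose intervals overlapped. The RUNX site TGTGGTT was found at 7.56% against 6.69%, the FOX site TGTTTAC at 2.03% against 4.65%, the PBX site TGATTGAT at 0.581% of both and the CTCF core AGGGGGC at 2.33% of both. The ETS site CCGGAAG and the palindrome shared by the glucocorticoid and progesterone receptors, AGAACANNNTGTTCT with at most 1 mismatch, were found at 0 of 344 summits, which allows a share of up to 1.10% by the Wilson interval. They were found at 1.35% and 0.223% of the regions with a peak in any of the 10 libraries. A total of 79 kept sites held none of the ERE, half-site, AP-1 or NF1 letters.

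Kept sites were mostly away from promoters. The summit lay in an intron at 154 sites (44.8%), between genes at 146 (42.4%), no more than 3 kb from an annotated transcription start (TSS) at 36 (10.5%) and in an exon at 8 (2.33%). Promoter sites made up 17.7% of E2 sites with no peak under E2 plus fulvestrant, 24.0% of regions with a peak in any of the 10 libraries and 60.1% of constant sites. The median distance from summit to the nearest TSS was 18361 bp for kept sites and 15007 bp, 11815 bp and 614 bp for these sets in the same order. The GC content of the summit window had a median of 45.8% at kept sites and of 45.3%, 46.3% and 55.7% in these sets, so the constant sites stood apart more than the kept sites did. Only 17 kept sites (4.94%) were within 3 kb of the start of a protein-coding gene. Repeat-masked sequence made up over 50% of the window at 22 kept sites (6.4%).

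The share of sites with an ERE differed little by position. It was 10 of 36 at promoters, 28 of 154 in introns and 32 of 146 between genes, with overlapping intervals. Chromosome X carried 18 kept sites, 0.842% of its 2139 regions with a peak in any of the 10 libraries, whereas the autosomes ranged from 0.151% to 0.441%. Kept sites were scattered, since 20 of 344 lay within 50 kb of another, in 10 groups of 2. The best-ranked groups lay by Atp8b1 on chromosome 18, by Crispld2 and Zdhhc7 on chromosome 8, and by Lipg on chromosome 18. A pair of sites 15866 bp apart at Slco2a1, which encodes a prostaglandin transporter, held an ERE at both.

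Peaks at the kept sites were of middling height. Rank percentile places each peak in its own library's list by p-value, with 0 at the top. The median over the 344 sites was 34.6 and 36.4 in E2 replicates 2 and 3, and 58.0, 39.1 and 29.0 in E2 plus fulvestrant replicates 1, 2 and 3. E2 plus fulvestrant replicate 1 thus stood lowest and replicate 3 highest, with both E2 libraries between them. No kept site was in the top 1% of any of these 5 lists. A total of 73 were in the top 10% of at least 1 list and none in the top 10% of all 5.

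In fold enrichment over local background, the median peak stood at 3.93 and 3.77 with E2 and at 2.91, 3.46 and 3.81 with E2 plus fulvestrant. The corresponding median number of fragments at the summit, recovered from the fold and the p-value, was 25.5 and 25 with E2 and 18, 20 and 22 with E2 plus fulvestrant, over a local background with library medians of 4.58 to 5.45 fragments. The peaks reached a q-value of at most 0.05 in all 5 libraries at 249 of 344 sites (72.4%). At 303 sites all 5 folds exceeded 2.15, the fold a peak needed at the lowest background of the vehicle and fulvestrant libraries of the rule. Where the local background is higher, a peak can be called at a lower fold.

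**Figure D2:**
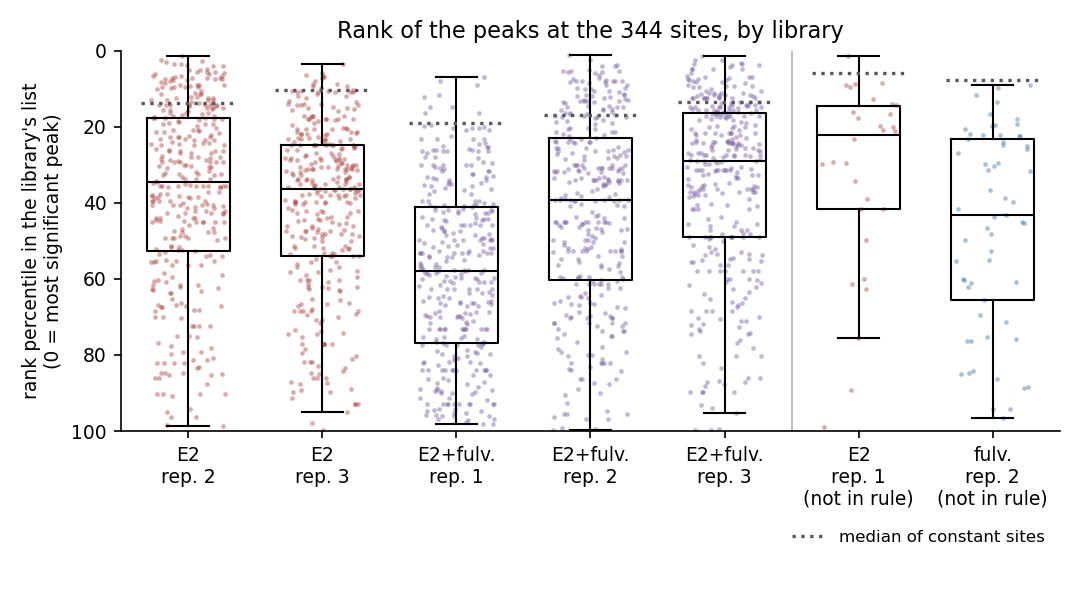
Rank percentile of the peak at each kept site (points, y axis, 0 at the top of the list) in the 5 libraries that required a peak and, right of the line, in the 2 libraries outside the rule, where 30 and 61 sites had a peak. Boxes give the median and quartiles and dotted lines the median of the constant sites, which was higher in the list in every library shown.

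The difference in the median rank percentile, E2 plus fulvestrant minus E2, was 6.57 points, with a 2-sided exact permutation p of 0.8 over 2 against 3 libraries, where the smallest possible p is 0.1. Without E2 plus fulvestrant replicate 1 the difference was -1.42 points. Library medians of the 2 treatments overlapped. The lists held 60910 and 68971 peaks with E2 and 40939, 50869 and 66218 with E2 plus fulvestrant, and a percentile moves with the length of the list, so the ranks do not measure height across libraries.

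Among the best-ranked kept sites the treatments overlapped at some and not at others. At the Ceacam3 site (chr7:17155684-17156325), in an intron of a gene of the carcinoembryonic antigen family, fold enrichment was 6.999 and 7.54 with E2 and 3.91, 6.63 and 9.48 with E2 plus fulvestrant. At the site 148 bp from the TSS of Galntl5 (chr5:25180849-25182056), a gene of the GalNAc-transferase family, it was 6.17 and 6.93 with E2 and 4.84, 4.45 and 6.22 with E2 plus fulvestrant. At Ceacam3 the 2 treatments overlapped, and at Galntl5 only E2 plus fulvestrant replicate 3 reached the E2 values. These folds were not scaled between libraries. Relative to the median of the constant sites in each library, the log2 fold at Galntl5 was 0.37 and 0.30 with E2. With E2 plus fulvestrant it was 0.38, 0.16 and 0.54, so the treatments overlapped.

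At the site in an intron of Hdac4 (chr1:92077920-92078351), which encodes a class IIa histone deacetylase, the fold was 7.41 and 6.90 with E2 and 4.12, 4.27 and 4.16 with E2 plus fulvestrant, and the treatments did not overlap. At the site 3681 bp from Gm17745 (chr10:93331405-93331885) it was 11.2 and 8.34 with E2 and 4.71, 5.99 and 7.34 with E2 plus fulvestrant. At the site 2289 bp from the start of Bmp8a (chr4:123340247-123340847), a bone morphogenetic protein ligand, it was 7.25 and 8.26 with E2 and 3.88, 6.66 and 8.53 with E2 plus fulvestrant. The Bmp8a site also had a peak in fulvestrant replicate 2, a library outside the rule, at a fold of 6.46, and none in E2 replicate 1. The Hdac4 and Gm17745 sites both held an ERE without mismatch and were lower in fold in every E2 plus fulvestrant library. Relative to the constant sites, Hdac4 stayed lower in each. Gm17745 then overlapped, at log2 folds of 1.23 and 0.57 with E2 and 0.34, 0.59 and 0.78 with E2 plus fulvestrant. The Ceacam3 site also held an ERE without mismatch, and its treatments overlapped. So did those of the Bmp8a site, with an ERE of 1 mismatch. The relation of the ERE to these differences was not tested.

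Of the other 7 of the 12 best-ranked sites, 5 held an ERE. They lay by BB123696, Gm48623, AC137585.1, Gm24225, H2al3 and Gm24253, and inside Gm20388, an annotated locus that spans many genes and whose nearest protein-coding start from the site is that of Zfpm1, 130325 bp away. The site by Gm24225 was wholly repeat-masked. Among the 12 best-ranked sites, those at Galntl5, Gm20388, H2al3 and Bmp8a had a peak in fulvestrant replicate 2. Those at BB123696 and Gm20388 had one in E2 replicate 1.

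Sites with an ERE ranked above sites without one in all 5 libraries. In E2 replicates 2 and 3 the median percentile was 19.3 and 24.9 with an ERE (n = 73) and 38.5 and 38.8 without (n = 271). In E2 plus fulvestrant replicates 1, 2 and 3 it was 53.2, 28.8 and 22.1 with an ERE and 59.1, 43.2 and 31.0 without. The mean gap was -12.5 points, with a 2-sided exact sign-flip p of 0.0625 over the 5 libraries, the smallest that 5 libraries can give. The gap was -19.3 and -13.9 points with E2 and -5.81, -14.4 and -8.88 points with E2 plus fulvestrant, and the difference in gap between treatments was not tested.

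The share of sites with an ERE fell with rank. In 4 equal bins of the kept sites, from the best to the worst mean percentile, it was 37.2%, 22.1%, 16.3% and 9.30%. E2 sites with no peak under E2 plus fulvestrant, placed by their mean over E2 replicates 2 and 3 and cut at the same percentiles, had 17.4%, 14.3%, 10.5% and 2.45%, with 23, 91, 181 and 1388 sites in the bins. Constant sites had 4.67%, 1.03%, 0.344% and 1.06%. Within each of the first 3 bins the intervals of the kept sites and of the E2 sites without a peak under E2 plus fulvestrant overlapped, and in the last bin they did not. The height of the peaks therefore moved with the difference in ERE share between these 2 sets, and its part in that difference was not tested further.

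**Figure D3:**
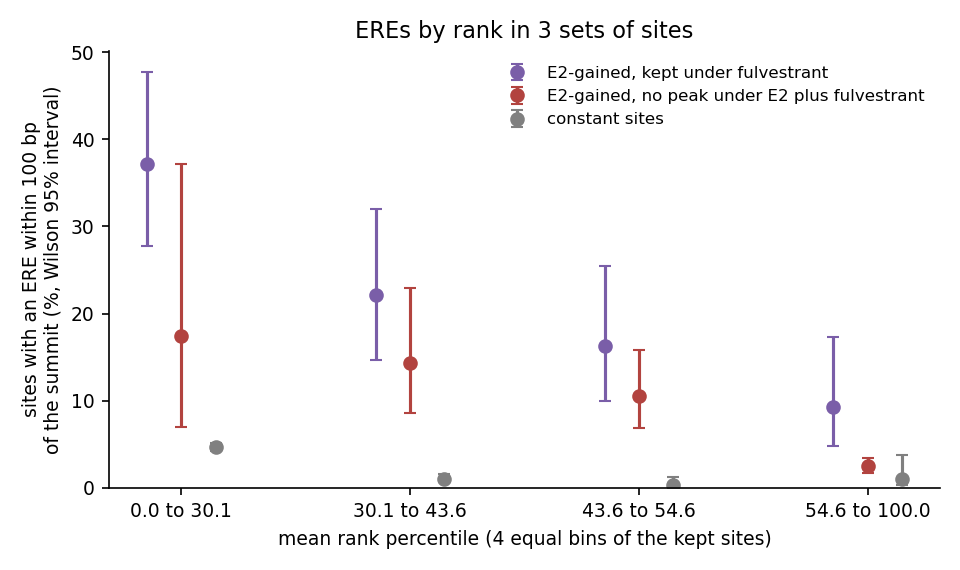
Share of sites with an ERE within 100 bp of the summit (percent, with Wilson 95% intervals) by mean rank percentile, in 4 equal bins of the kept sites, for kept sites, E2-gained sites with no peak under E2 plus fulvestrant, and constant sites. The share among kept sites went from 37.2% in the best-ranked bin to 9.30% in the last, and constant sites stayed under 5% in every bin.

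Whether peak height at the kept sites differed between E2 and E2 plus fulvestrant was tested with limma on log2 fold enrichment. The fit covered all 19542 regions with a peak in the 5 libraries, was centred on the constant sites and was adjusted over all regions by the Benjamini-Hochberg method. No kept site was called lower with E2 plus fulvestrant and 1 was called higher, against 0 lower (0%) and 18 higher (0.0921%) of all regions tested. At an unadjusted p under 0.05, 10 kept sites (2.91%) were lower and 49 (14.2%) higher, against 1.37% and 5.20% of all regions tested. Without centring these counts turned round, to 59 kept sites lower and 4 higher, with 3276 lower and 89 higher of all regions tested. The rule required a peak in all 5 libraries, so sites at which fulvestrant removed the peak could not be among them.

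The median log2 difference over the kept sites was 0.16, and 111 of 344 differences were negative. Over all regions tested the median was 0.05 and 42.9% were negative. These values are relative to the constant sites, whose height before centring was lower by 0.37 with E2 plus fulvestrant. Without centring the median of the kept sites was -0.21, so the direction depended on the scaling. The 26 kept sites with a −log10 q of at least 5 in all 5 libraries had a median of -0.11. Without E2 replicate 2 the median was 0.31, and without E2 replicate 3 it was 0.03. Sites with an ERE had a median of -0.0045, with 37 of 73 negative, and sites without one had 0.20, with 74 of 271 negative.

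The site called higher lay in an intron of Pard3 (chr8:127221850-127222734), which encodes a scaffold of the cell polarity complex, and held no ERE. Its fold enrichment was 2.41 and 3.35 with E2 and 3.94, 6.63 and 9.26 with E2 plus fulvestrant, so every library with fulvestrant was above both with E2. The log2 difference was 1.51 ± 0.28 (SE, n = 2 and 3, limma adjusted p = 0.04). The call was lost without E2 replicate 2 (adjusted p = 0.165), without E2 replicate 3 (0.264) and without E2 plus fulvestrant replicates 2 (0.405) or 3 (0.214), all by limma, and the difference stayed positive in each. It was also lost without centring (limma adjusted p = 0.142) and with quantile normalization (0.0549), and over all 11 alternatives the limma adjusted p ran from 1.97e-06 to 0.405.

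The next sites by p did not pass the adjustment. The first (chr6:31517677-31518621) was intergenic, 45770 bp from the start of Podxl, which encodes a sialomucin of the cell surface. Its fold was 1.95 and 2.51 with E2 and 2.97, 3.67 and 4.36 with E2 plus fulvestrant (limma adjusted p = 0.114). At the intergenic site by AC118695.2 on chromosome 19 the limma adjusted p was 0.182, with a log2 difference of 1.02. In the lower direction the smallest p was at an intergenic site 4453 bp from the start of Ripor2 (chr13:24577302-24577962). There the fold was 8.13 and 8.14 with E2 and 2.91, 2.997 and 4.98 with E2 plus fulvestrant, and the log2 difference was -0.83 ± 0.26 (SE, limma adjusted p = 0.449). The sites by AC137585.1 on chromosome 18 (log2 difference -0.83) and Gm38044 on chromosome 3 (-0.77) came next, with limma adjusted p of 0.511 and 0.548. All 3 sites in the lower direction held an ERE, as did the Podxl site in the higher direction.

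**Figure D4:**
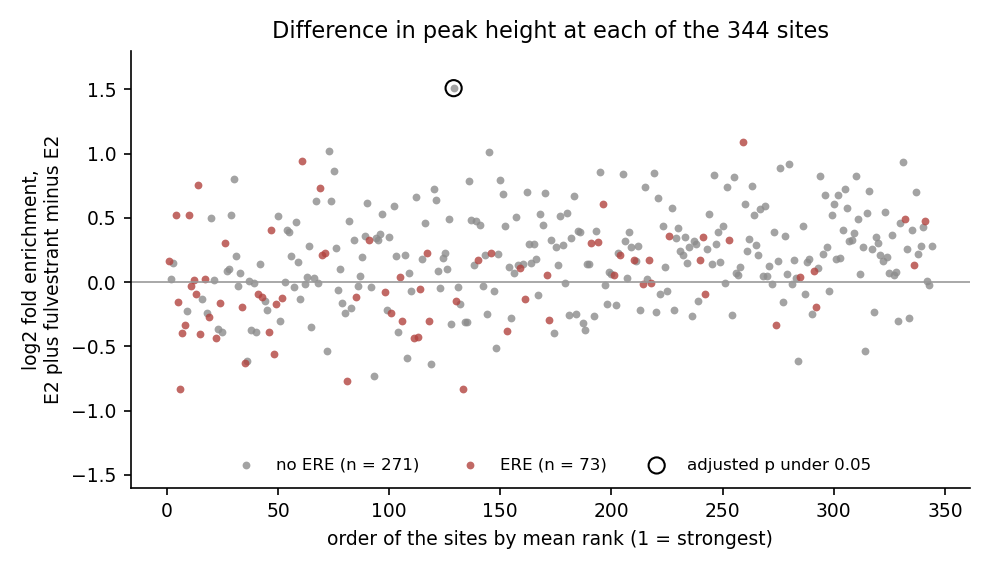
Difference in log2 fold enrichment, E2 plus fulvestrant minus E2 and relative to the constant sites (y axis), for each kept site in order of mean rank (x axis, 1 = strongest), coloured by the presence of an ERE. The circled site, in Pard3, was the 1 site with an adjusted p under 0.05, and 111 of the 344 points lie below 0.

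Genes near the kept sites were counted in lists of estrogen, matrix, growth factor and cell type genes. A gene counted when a kept site lay in it or within 10 kb, which held for 189 of 21911 protein-coding genes (0.863%). Of 24 textbook estrogen targets 1 had a kept site, Pgr, and Myc and Sgk1 were the nearest start to another. Of 18 genes of the insulin-like growth factor axis 3 had one, the receptor genes Igf1r, Insr and Ghr. All 3 sites were intronic, 95989, 34908 and 26492 bp from the starts of Igf1r, Insr and Ghr. A longer gene offers more room for a site, and the 0.863% is not matched for gene length. These counts are small and carry no test.

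At Pgr (chr9:8951118-8951637), in an intron, the fold was 6.37 and 6.47 with E2 and 3.36, 4.15 and 3.55 with E2 plus fulvestrant. The treatments did not overlap, and the site was not past the limma threshold. At Igf1r (chr7:68048530-68049047), the receptor of insulin-like growth factors, the fold was 3.56 and 3.33 with E2 and 3.52, 3.77 and 3.65 with E2 plus fulvestrant. These Igf1r folds overlapped between treatments, and the site held no ERE. Relative to the constant sites, the log2 fold was -0.43 and -0.75 with E2 and -0.08, -0.08 and -0.23 with E2 plus fulvestrant. Those values did not overlap.

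At Insr (chr8:3244418-3245230), the insulin receptor gene, the fold was 4.89 and 3.54 with E2 and 2.57, 2.25 and 4.13 with E2 plus fulvestrant. At Ghr (chr15:3497776-3498417), the growth hormone receptor gene, it was 2.37 and 2.73 with E2 and 2.67, 2.23 and 2.28 with E2 plus fulvestrant. The Ghr site ranked 339 of 344, and the Insr site was 80.6% repeat-masked.

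Lists of matrix and signalling genes were counted in the same way. Of 27 TGF-beta pathway genes, 22 collagens, 27 matrix proteases and inhibitors, 27 matricellular and elastic matrix genes, 25 genes of mechanosensing and contractility, 15 AP-1 genes, 20 cell cycle genes and 22 ribosomal protein genes, none had a kept site within 10 kb. With 0.863% of all protein-coding genes counted, lists of this size would hold few or none, so these counts are not set apart from the background. By nearest start, kept sites were assigned to Col6a1, Col8a1, Timp3, Thbs1, Ccn5, Itgb1 and Rps24. Of 35 Wnt pathway genes Wnt5b had one, 224 bp from its start, with a fold of 3.37 and 2.90 under E2 and 2.04, 2.22 and 3.03 under E2 plus fulvestrant, and Wnt5a and Tcf7l2 were nearest starts. Of 25 cofactor transcription factors none had one and Runx1 was a nearest start. Pgr was also the 1 of 6 steroid receptor genes with a site.

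In the list of 20 fibroblast identity genes Tcf4 had a kept site and Osr1 was a nearest start. Tcf4 is a different gene from Tcf7l2 of the Wnt list, and this count is not read as a result on fibroblast identity. At Tcf4, which encodes a basic helix-loop-helix factor, the fold was 2.61 and 2.52 under E2 and 2.84, 3.11 and 3.79 under E2 plus fulvestrant. For other cell types, none of 10 myogenic, 10 endothelial and mural, and 8 adipocyte marker genes had one, and of 10 immune markers 1 did, the chemokine receptor gene Cx3cr1. Of the 58 genes that the study listed as raised by E2, Pgr had a kept site and Cdon and Wnt5a were nearest starts. Of the 34 it listed as raised by E2 plus fulvestrant none had one and Akap13 and Ccnl1 were nearest starts. The study chose both lists with these libraries among its data, so they are not independent of the sites.

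The 2 libraries outside the rule gave the only peak calls that did not choose the sites. E2 replicate 1 had a peak at 30 of 344 kept sites (8.72%, Wilson 95% interval 6.18 to 12.2), against 16.0% of all regions with a peak in any of the 10 libraries, 8.08% of E2 sites with no peak under E2 plus fulvestrant and 66.2% of constant sites. Fulvestrant replicate 2 had a peak at 61 kept sites (17.7%, interval 14.1 to 22.1), against 24.3%, 11.9% and 85.9% of the same sets. At the kept sites the remaining E2 library therefore had a peak less often than the remaining fulvestrant library, which is the reverse of the order the rule set in the other libraries. The fulvestrant library had the higher share in each of these sets. Their depths and list lengths differed: E2 replicate 1 listed 104571 peaks at a relative depth of 39.1%, and fulvestrant replicate 2 listed 80754 at 75.8%.

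Both libraries had a peak at 21 kept sites and neither at 274. Only 9 kept sites had a peak in E2 replicate 1 and none in fulvestrant replicate 2, the pattern of the rule, whereas 40 had the opposite. Over all regions with a peak in any of the 10 libraries, fulvestrant replicate 2 also had the higher share, 24.3% against 16.0%. The excess is therefore not particular to the kept sites. The best-ranked of the 9 lay by BB123696, Gm37272 and Ccn5. Ccn5 encodes a matricellular protein, and its site (chr2:163803805-163804959) was intergenic, 16823 bp from the start. The fold at this site was 7.33 in E2 replicate 1, 4.83 and 4.06 in E2 replicates 2 and 3, and 2.74, 6.00 and 3.87 in E2 plus fulvestrant replicates 1 to 3. An ERE with 1 mismatch lay 15 bp from its summit. Sites with and without an ERE had a peak in E2 replicate 1 at 8.22% and 8.86%, and in fulvestrant replicate 2 at 17.8% and 17.7%.

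**Figure D5:**
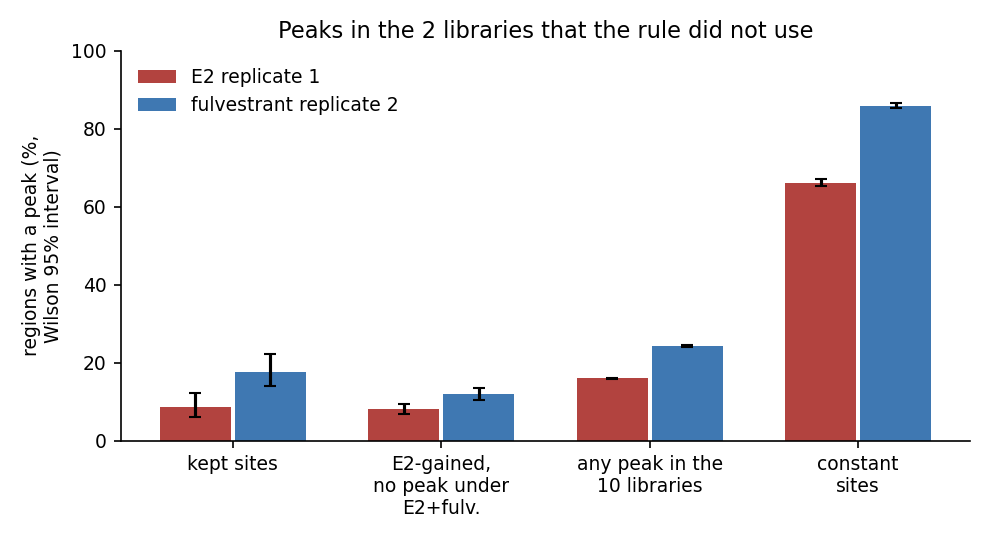
Share of regions (percent, with Wilson 95% intervals) with a peak in E2 replicate 1 and in fulvestrant replicate 2, which did not enter the rule, for kept sites, E2-gained sites with no peak under E2 plus fulvestrant, regions with a peak in any of the 10 libraries, and constant sites. Kept sites stood at 8.72% and 17.7%, below the 16.0% and 24.3% of regions with any peak.

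The edge of the rule was wide. A total of 2002 regions missed it by 1 library. Of these, 1223 lacked 1 of the 5 required peaks, 872 of them in E2 plus fulvestrant replicate 1, and 779 had 1 peak too many, 286 of them in vehicle replicate 1. Without E2 plus fulvestrant replicate 1 the rule chose 1216 regions, and without vehicle replicate 1 it chose 630. Of the 2002 regions 10.2% held an ERE.

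Just inside, the lowest-ranked kept sites lay in Rbms3, Hs6st2 and by Rubcnl, with mean percentiles of 76.6, 77.4 and 83.8 and no ERE. Just outside, the best-ranked regions lay by Gm48199, Gm49390 and Zp1, with mean percentiles of 3.17, 4.01 and 5.60 over the 5 libraries. They missed the rule through a peak in fulvestrant replicate 1 (fold 3.94) and, for the last 2, in vehicle replicate 1 (2.83 and 2.68). Each of these 3 regions thus ranked above every kept site, the best of which had a mean percentile of 7.31.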

How the data were processed

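ESR1 ChIP-Seq peak lists of 12 libraries were used. Per the paper's methods and the submitters' processing notes, the authors used Trimmomatic 0.39 for trimming, Bowtie2 for alignment to mm10, Picard 2.21.4 to drop duplicates and MACS2 2.2.71 for peak calling in each library. The deposited lists give, per peak, the fold enrichment ratio at the summit and the −log10 p-value and −log10 q-value. Read counts were not analysed here, so depth is known only relative to the local background that the lists hold. A peak call depends on depth and on the background model, and absence of a peak is not absence of ESR1.

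Peaks were merged at 1 bp overlap, and the sites were chosen by presence alone. The sites and the gene lists were chosen with earlier results of these data known. Fragments and background at each summit were recovered from fold (pseudocount 1) and Poisson p-value, where the −log10 p did not exceed 100, and at least 99.99% of values came out whole within 0.02. Motifs were read from GRCm38 (mm10) and genes from GENCODE vM21. Peak height was compared with limma 3.58.1 in R 4.3.3. The study modelled read counts with DESeq2, which peak lists do not allow. Rank percentiles were compared by exact tests over libraries. The merging, the motif search, the recovery of fragments and the fit were tested on simulated data. Named sites were the 12 best-ranked, up to 10 with an ERE without mismatch, those with the smallest limma p, the best-ranked per gene list (some sites and 1 list are not reported here), those with a peak in E2 replicate 1 and none in fulvestrant replicate 2, those at the edge of the rule and the densest groups. A site was named by the protein-coding gene that holds it, or else by the nearest TSS. Alternatives changed the peaks that count, the libraries, the windows, the scaling and the measure of height.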

Additional observations from a re-analysis of the deposited data

Results flagged for a closer look

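The 2 libraries that the rule left out hold peaks at the kept sites. E2 replicate 1 had a peak at 8.72% of the 344 sites and fulvestrant replicate 2 at 17.7%, and these calls did not enter the choice of sites. Both shares lie below those over all regions with a peak in any of the 10 libraries, 16.0% and 24.3%. The fulvestrant library had the higher share there and at the constant sites too (85.9% against 66.2%), so that order is not particular to the kept sites. Vehicle libraries had none at these sites by the rule. Groups of 3 libraries are too small for a search for outlying samples.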

How the results depend on the processing

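The number of kept sites was 30 when E2 replicate 1 was also required, and 398 to 1216 when the rule was applied without each of its 10 libraries in turn. The share with an ERE was 3.49% with no mismatch allowed, 15.99% within 50 bp of the summit, 15.8% in fixed windows around the strongest summit, and 14.1% to 19.5% with each library left out. The share at promoters was 3.78% within 1 kb, 4.94% for protein-coding starts, 16.7% with E2 replicate 1 required, and 10.3% to 13.1% with libraries left out. The repeat-masked share was 4.07% both at a q-value of 0.05 or less and at a −log10 q of 5 or more, 0% with E2 replicate 1 required, 11.05% by the summit base alone, and 4.92% to 6.28% with libraries left out. With repeat-masked regions removed it is 0 by construction. The share with a peak in E2 replicate 1 was 4.62% in fixed windows and 7.81% to 12.4% with libraries left out. The share with a peak in fulvestrant replicate 2 was 10.5% at a −log10 q of at least 5, 11.8% in fixed windows and 13.98% to 22.9% with libraries left out. The cause of these shifts was not tested.

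In the limma comparison, 0 kept sites were called higher without centring, with quantile normalization, at a −log10 q of at least 5 or with E2 replicate 1 added, 3 were called with −log10 p in place of fold, and 0 to 1 with a library left out. The median difference reversed to -0.21 without centring and to -0.11 at a −log10 q of at least 5, was 0.33 with −log10 p and 0.33 with E2 replicate 1 added, and ran from 0.0317 to 0.312 with a library left out. With the replicate number as a block 7 sites were called higher and 1 lower. Whether the numbers pair the libraries could not be told. Deviations from the treatment mean over the constant sites correlated at 0.13 for replicate 2 and -0.12 for replicate 3. With only 2 E2 libraries those deviations mirror each other, so these correlations cannot decide it. The sources used here tie no number to a shared animal or day. Within replicates the difference in median rank percentile was -1.42, and it ran from -1.42 to 13.1 with a library left out. The gap in rank between sites with and without an ERE kept its direction in all 7 alternatives, from -21.2 to -10.8. Depth limits the call of absence, since a peak needed 8 to 9 fragments at the lowest background of the libraries of the rule.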
